A study of Mus musculus with 12 samples.

Results

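Cultured renal progenitor cells were compared with the kidney tissue they are made from, over all genes that the arrays measured. The comparison takes 8 of the 12 mouse arrays of the series, 4 of progenitor cells and 4 of tissue. Tissue came from the kidney cortex (2 arrays) and medulla (2 arrays). The progenitor arrays held cells that had been isolated from cortex (2 arrays) or medulla (2 arrays) and grown on a layer of fibroblast feeder cells. The other 4 arrays, of organoids that were formed in 3D Matrigel, entered the model to help estimate the spread and are not described. The labels give no strain, age, sex, passage number or number of pooled animals, and do not say whether feeder cells were removed before RNA was taken. Replicates are called biological, with no word on whether samples of the same number have 1 animal or culture in common, so the p-values measure the spread between these arrays only. Every array in the comparison carried total RNA labelled as biotinylated cRNA by the same 3' kit.

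The kidney filters blood and then reclaims most of the filtrate along the nephron. The proximal tubule takes back glucose, phosphate, amino acids and filtered protein, and burns fat and other fuels in dense mitochondria and peroxisomes. The loop of Henle, distal tubule and collecting duct adjust salt, water and acid. Adult tubule cells rarely divide, and after injury or in culture they are known to lose these features and enter the cell cycle. Because whole tissue also holds vessels, immune cells and stroma, a lower level in culture can mean fewer cells of a type or less RNA per cell, and bulk arrays cannot tell these apart.

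Of 18193 genes with a probe set of their own, 13037 were bright enough to be tested. Levels below are log2 signals after a small constant was added, so that no level lies under 3.92, the floor, and differences of genes near it are understated. A difference is the progenitor level minus the tissue level with its standard error (SE), from 4 arrays on each side. A gene is said to have risen or fallen where the limma test gave an adjusted p below 0.05. By that rule 4801 genes (36.8%) rose and 4676 (35.9%) fell, together 72.7% of those tested, and 2695 (20.7%) rose and 3040 (23.3%) fell by at least 2-fold. Counts for single gene lists below are to be read against these shares and against the median difference over all tested genes, which was 0.03. All progenitor arrays lay above all tissue arrays for 37.2% of tested genes and below them for 35.8%. A gene that is bright in 1 group only enters through that group and had to differ, so list counts and medians describe the tested members and are no test of the list.

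The change was one-sided at its far end and much alike in both regions. Among the largest differences, 364 genes fell by at least 5 log2 units and 61 rose by as much. Cortex-derived cells against cortex tissue gave 4185 rises and 3991 falls, and medulla-derived cells against medulla tissue, with no array in common, gave 4040 and 4049. Of 7168 genes called in both regions 7161 had the same sign, and the paired differences correlated across the 13037 genes with r = 0.967, a description in which genes are not independent replicates. The difference itself depended on region for 37 genes (0.284%), while 933 had an unadjusted p below 0.05. That count was 122 without the second medulla tissue array and 11 to 21 without any 1 of the other 7. At the other extreme, 1164 genes had a 95% confidence interval that lay wholly within 0.5 log2 units of 0.

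**Figure D1:**
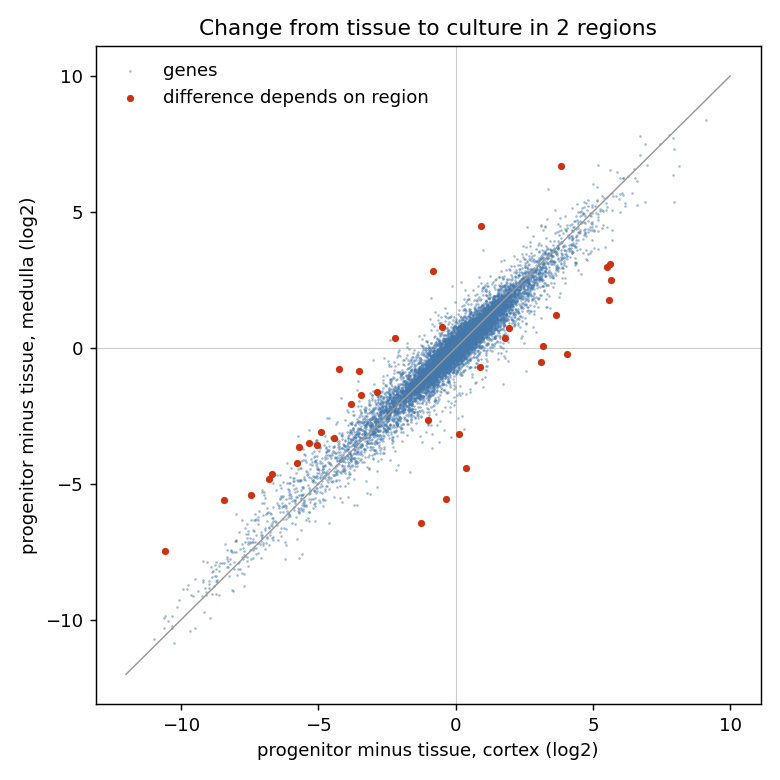
Log2 difference between progenitor cells and tissue in cortex (horizontal axis) and in medulla (vertical axis) for 13037 genes, each difference from 2 arrays against 2. The points lie along the diagonal (r = 0.967), and the 37 genes whose difference depended on region are drawn in a second colour.

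Several features of the arrays moved with the comparison. Poly-A spike-in controls had array medians of 7.96 to 8.83 in tissue and 7.03 to 7.37 in culture and hybridization controls of 12.08 to 12.33 in tissue and 11.66 to 11.72 in culture. The 3' minus 5' log2 difference of beta-actin control probe sets, a sign of RNA or labelling quality, was 0.94 to 1.63 in tissue and 0.16 to 0.19 in culture. For the Gapdh control probe sets it was -0.233 to 0.183 in tissue and -0.405 to -0.298 in culture. Their part in the differences below was not tested. Replicates of a group correlated with r between 0.979 and 0.99 over tested genes, and arrays of tissue and progenitor cells with r between 0.605 and 0.637. The second medulla tissue array correlated slightly better with the cortex tissue arrays (r = 0.98 and 0.983) than with the other medulla array (r = 0.979).

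The labels were checked against markers of the cells that each sample could hold. The 12 tested proximal tubule markers averaged 12.49 to 13.04 over the cortex and medulla tissue arrays and 5.05 to 5.28 in culture, and all 12 fell. Medulla tissue thus also carried a strong proximal tubule signal. All 8 principal cell, all 8 intercalated cell, all 15 endothelial and all 12 leukocyte markers fell as well. Other segments had exceptions. Of 8 thick ascending limb markers 7 fell and 1 rose, and of 8 distal convoluted and connecting tubule markers 7 fell and 1 did not pass. Of 5 thin limb markers 3 fell and 2 rose. The 15 endothelial markers averaged 9.04 to 9.70 in tissue and 5.45 to 5.92 in culture, and the 12 leukocyte markers 9.17 to 9.81 and 5.51 to 5.74. Fibroblast markers went the other way: 15 of 20 rose and 3 fell, and they averaged 7.84 to 8.45 in tissue and 9.21 to 9.65 in culture. Col1a1, a fibrillar collagen (3.28 ± 0.12, SE), and fibronectin, Fn1 (3.38 ± 0.18), led them, whereas Lum (-2.45 ± 0.25) and the PDGF receptors Pdgfra (-1.72 ± 0.40) and Pdgfrb (-1.72 ± 0.33) fell. What share of the culture RNA came from feeder fibroblasts was not tested. It could touch any culture level given below, with the matrix, protease and ligand results among them. Xist, the X-inactivation transcript of female cells, averaged 12.54 in tissue and 12.80 in culture and did not pass the test (0.26 ± 0.17), although it did with quantile normalization (0.36) and without the second medulla tissue array (0.51). The Y-linked genes Eif2s3y, Kdm5d and Uty were too dim to be tested. Over all their probe sets they lay between 3.98 and 5.82 on the tissue arrays and between 3.97 and 5.41 on the progenitor arrays.

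Genes for the recovery of filtered solutes were lower in culture. For glucose, phosphate, bicarbonate and sulfate recovery, 20 of 22 tested genes (22 listed) fell and 1 rose, with a median difference of -6.60. The list holds carriers, scaffolds and carbonic anhydrases. The dicarboxylate carrier Slc13a3 (-8.99 ± 0.24), the phosphate cotransporter Slc34a1 (-8.53 ± 0.24), the scaffold Pdzk1 (-8.46 ± 0.32) and the sulfate carrier Slc13a1 (-8.19 ± 0.23) fell most. The exception was Slc20a1 (1.13 ± 0.11), a phosphate carrier found in most cell types.

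Amino acid carriers divided by their role. Of the 19 tested genes for amino acid and peptide recovery (21 listed), 18 fell and 0 rose, with a median of -5.05. Cltrn, or collectrin, which brings amino acid carriers to the brush border, measured 14.99, 14.82, 14.67 and 14.80 on the tissue arrays (cortex 1 and 2, then medulla 1 and 2, as in all such sentences) and 4.36, 4.81, 4.68 and 4.21 on the progenitor arrays. No progenitor array came near a tissue array, and the difference was -10.30 ± 0.19 with an adjusted p of 2.33e-12. Slc7a12 (-9.43 ± 0.19) and the cystine transporter pair Slc3a1 (-8.47 ± 0.13) and Slc7a9 (-8.25 ± 0.27) followed. In the list of carriers that feed growing cells, 6 of 9 tested genes rose and 1 fell. The glutamine carrier Slc38a1 measured 6.66, 6.82, 8.21 and 6.76 on the tissue arrays and 10.96, 10.97, 11.11 and 10.82 on the progenitor arrays, so that all progenitor arrays lay above all tissue arrays (difference 3.85 ± 0.25). The leucine exchanger Slc7a5 (3.47 ± 0.12) and the arginine carrier Slc7a1 (3.08 ± 0.18) rose with it, but Slc3a2, the partner chain of Slc7a5, fell (-0.65 ± 0.13).

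Drug and organic ion carriers fell in 19 of 27 tested cases (29 listed) and rose in 5, with a median of -5.54. The organic anion transporters Slc22a8 (-9.22 ± 0.23), Slc22a19 (-9.17 ± 0.21) and Slc22a6 (-7.03 ± 0.30) and the extruder Slc47a1 (-8.18 ± 0.20) fell. The 5 that rose were the prostaglandin carrier Slco2a1 (1.83 ± 0.10), Slco4a1 (1.56 ± 0.24) and the export pumps Abcc1 (1.36 ± 0.12), Abcb1b (1.34 ± 0.14) and Abcc4 (0.74 ± 0.13). Within the P-glycoprotein pair, Abcb1b thus rose while Abcb1a fell (-1.78 ± 0.22). Of 28 tested cytochrome P450 and glucuronosyltransferase genes 26 fell and 2 rose, with a median of -4.07; Cyp2j5 (-10.09 ± 0.24) and Ugt3a2 (-9.82 ± 0.17) were lowest.

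Most tested transcripts of the apical brush border were lower too. Of 21 tested brush border genes 18 fell and 3 rose, with a median of -5.32. The metalloproteases Mep1b (-8.85 ± 0.28) and Mep1a (-7.72 ± 0.26), alkaline phosphatase Alpl (-7.25 ± 0.28) and the actin bundler Vil1 (-6.76 ± 0.24) were among the falls, while the mucin Muc1 (2.58 ± 0.11) and Prom1 (1.57 ± 0.12) rose. Of 13 tested genes of endocytic reabsorption 9 fell and 3 rose. The receptors Lrp2, or megalin (-8.58 ± 0.29), and Cubn (-7.28 ± 0.23) and the adaptor Dab2 (-4.82 ± 0.15) were among the falls, and the trafficking genes Snx5 (1.81 ± 0.11), Ap2b1 (1.77 ± 0.10) and Ehd1 (0.84 ± 0.10) rose. Of 32 tested lysosome genes 22 fell and 7 rose, led by the lipase Lipa (-3.18 ± 0.19) and, upwards, by Gla (1.83 ± 0.15). In the list of the sodium pump and salt channels the pump regulator Fxyd2 (-9.43 ± 0.24) and the potassium channel Kcnj15 (-6.44 ± 0.16) fell, and Fxyd3, of the family of Fxyd2, rose (4.07 ± 0.15). Primary cilium genes showed no common direction, with 13 falls and 7 rises among 27 tested, from Cys1 (-3.37 ± 0.14) to the motor Kif3a (1.82 ± 0.13).

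Transcripts of glucose enzymes changed by pathway. Of 15 tested glycolysis genes (18 listed) 12 rose and 1 fell, with a median of 1.07. Hexokinase 2, Hk2, measured 6.53, 6.69, 6.25 and 6.17 on the tissue arrays and 11.90, 11.96, 11.83 and 11.80 on the progenitor arrays. All 4 progenitor arrays lay far above the tissue arrays (difference 5.46 ± 0.09, adjusted p 1.07e-12). Pyruvate kinase Pkm (2.18 ± 0.10) and the glucose carrier Slc2a1 (1.81 ± 0.14) rose, and of the phosphofructokinases Pfkl rose (1.28 ± 0.11) and Pfkm fell (-1.47 ± 0.17). In the reverse direction, 9 of 10 tested genes of gluconeogenesis and fructose use fell. Fructose bisphosphatase, Fbp1, measured 14.96, 15.16, 14.68 and 15.08 on the tissue arrays and 5.65, 5.48, 4.83 and 4.35 on the progenitor arrays. Culture lay far below tissue on every array (difference -9.89 ± 0.19), and glucose 6-phosphatase, G6pc (-8.16 ± 0.33), and ketohexokinase, Khk (-7.0 ± 0.23), fell too. The rise in this list was Pck2 (0.84 ± 0.11), the mitochondrial form of the enzyme whose cytosolic form, Pck1, fell (-10.26 ± 0.19).

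Mitochondrial genes fell by less per gene but with few exceptions. All 33 tested complex I subunits fell, with a median of -1.40 and a range from -2.28 to -0.31. Of 36 tested subunits of complexes III to V 33 fell and 0 rose, most of all Cox7a1 (-4.32 ± 0.36), the heart and muscle form of its subunit, and of 17 citric acid cycle genes 16 fell and 0 rose. The within-region medians for complex I were -1.40 in cortex and -1.39 in medulla. Mitochondrial ribosome genes did not share this: 29 fell, 14 rose and 20 did not pass, with a median of -0.23, and the rises became 8 with 75th percentile scaling and 9 without the first cortex progenitor array. Among regulators, the nuclear receptor Esrrg measured 11.41, 11.18, 11.45 and 11.18 on the tissue arrays and 5.0, 4.88, 4.81 and 4.60 on the progenitor arrays. Esrrg was high in all tissue arrays and near the floor in culture (-6.48 ± 0.19), and the coactivators Ppargc1a (-5.83 ± 0.16) and Ppargc1b (-2.56 ± 0.16) fell, whereas Nrf1, an activator of respiratory chain genes, rose (0.94 ± 0.20).

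Peroxisome and amino acid breakdown genes fell in nearly every tested case. Of 35 peroxisome genes 31 fell and 1 rose (Pex26, 0.58 ± 0.13). The falls included the hydroxyacid oxidase Hao2 (-10.55 ± 0.45), the thiolase Acaa1b (-9.03 ± 0.26), D-amino acid oxidase, Dao (-6.70 ± 0.23), the membrane protein Pxmp4 (-3.87 ± 0.26), and the import and membrane factors Pex5 (-1.25 ± 0.14) and Pex3 (-1.05 ± 0.12). Of 41 amino acid catabolism genes 40 fell and 0 rose, with a median of -3.65. Tyrosine breakdown through Hpd (-8.42 ± 0.21) and Hgd (-8.61 ± 0.23), lysine breakdown through Aass (-8.55 ± 0.25) and creatine synthesis through Gatm (-7.37 ± 0.23) were examples.

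Folate and serine enzymes divided, 7 up and 5 down among 12 tested. The mitochondrial dehydrogenase Mthfd2, an enzyme of dividing cells, measured 6.38, 6.89, 7.02 and 6.89 on the tissue arrays and 11.37, 11.23, 11.04 and 11.19 on the progenitor arrays. The lowest progenitor array stood far above the highest tissue array (difference 4.41 ± 0.15). The serine synthesis enzymes Phgdh (3.46 ± 0.13) and Psat1 (3.21 ± 0.18) and mitochondrial Mthfd1l (3.05 ± 0.17) rose too. Aldh1l1, which oxidises cytosolic formyl folate, measured 13.36, 13.37, 13.11 and 13.33 on the tissue arrays and 7.21, 7.45, 8.54 and 8.45 on the progenitor arrays. Culture lay below tissue on every array, cortex-derived cells lowest (-5.38 ± 0.17), and cytosolic Shmt1 (-2.15 ± 0.12) and Mthfd1 (-1.93 ± 0.12) fell, as did mitochondrial Shmt2 (-0.77 ± 0.15). Nucleotide synthesis genes rose in 16 of 23 tested cases and fell in 2 (in 1 without either cortex tissue array, the first medulla tissue array, or the second progenitor array of cortex or of medulla), with ribonucleotide reductase Rrm2 (4.61 ± 0.11) and the CTP synthase Ctps (3.12 ± 0.12) at the top.

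Defence against oxidants changed gene by gene: 15 of 25 tested genes fell and 9 rose. Extracellular Sod3 (-5.81 ± 0.39), Gpx3 (-4.68 ± 0.14) and catalase, Cat (-2.87 ± 0.17), fell, and so did Nqo1 (-2.74 ± 0.19) and Gclc (-1.90 ± 0.09), which are known targets of the factor NRF2. Other NRF2 targets rose, among them heme oxygenase Hmox1 (2.88 ± 0.12), the cystine importer Slc7a11 (1.94 ± 0.22) and Txnrd1 (0.97 ± 0.09).

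**Figure D2:**
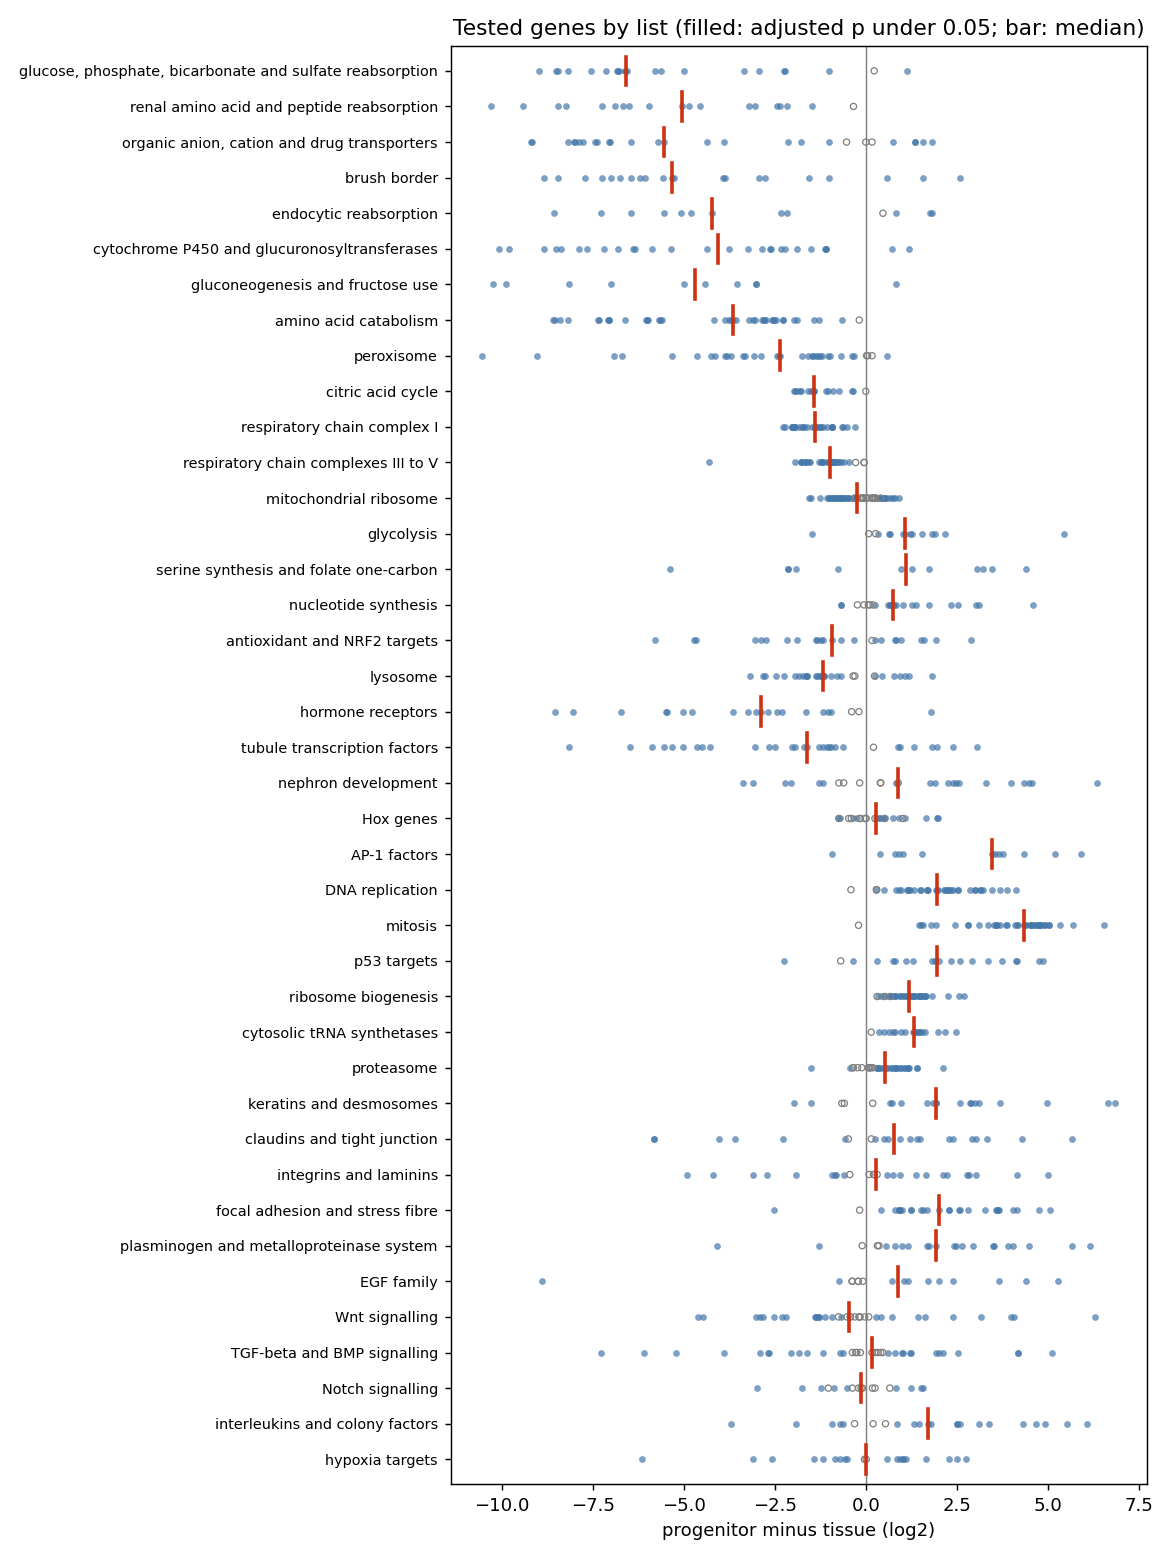
Log2 difference (progenitor minus tissue, horizontal axis) of each tested gene of 40 gene lists, 1 list per row; points are genes, filled where the adjusted p was below 0.05, and the bar is the list median. The medians of the solute transport and oxidative metabolism lists lie left of 0. Those of mitosis, replication and AP-1 lie right of it. Several of these lists have members on the other side, and the Hox, Notch and TGF-beta lists spread over both sides.

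Receptors through which hormones act on the kidney were lower. Of 21 tested receptors 18 fell and 1 rose, with a median of -2.88. The parathyroid hormone receptor, Pth1r, measured 13.45, 13.59, 12.94 and 13.46 on the tissue arrays and 5.33, 4.30, 4.61 and 5.05 on the progenitor arrays. Culture levels were near the floor on all 4 arrays (-8.54 ± 0.38). Klotho, Kl, the co-receptor for FGF23 (-8.06 ± 0.33), the prostaglandin receptor Ptger3 (-6.72 ± 0.41), the angiotensin receptor Agtr1a (-5.50 ± 0.34) and the vitamin D receptor, Vdr (-5.02 ± 0.19), fell too. Ptger4, another prostaglandin E2 receptor, rose (1.79 ± 0.13). The steroid receptors fell less, with the mineralocorticoid receptor Nr3c2 at -2.43 ± 0.25 and the glucocorticoid receptor Nr3c1 at -1.17 ± 0.19.

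Transcription factors of the tubule fell in 23 of 31 tested cases and rose in 7. Hnf4a, a master regulator of proximal tubule genes, measured 13.22, 13.32, 12.84 and 13.28 on the tissue arrays and 4.81, 4.87, 4.46 and 5.88 on the progenitor arrays. The difference of -8.16 ± 0.43 separated the groups on every array. Maf (-5.87 ± 0.33), the lipid sensor Ppara (-5.32 ± 0.26) and Foxi1, which specifies intercalated cells (-5.55 ± 0.24), fell as well. The 7 that rose included factors of surface epithelia: Tfap2a (3.05 ± 0.11), Elf3 (2.41 ± 0.21), Grhl2 (1.97 ± 0.13) and Ehf (1.81 ± 0.14). Pax8, which marks the renal epithelial lineage from the embryo on, rose by 0.88 ± 0.11. It measured 10.15, 10.41, 10.83 and 10.69 on the tissue arrays and 11.24, 11.33, 11.41 and 11.61 on the progenitor arrays, so that it was bright in both groups.

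Genes of kidney development rose more often than they fell, 14 against 6 of 26 tested. Sox11, a factor of embryonic progenitors, measured 5.17, 5.54, 6.15 and 5.21 on the tissue arrays and 11.99, 11.94, 11.84 and 11.76 on the progenitor arrays. Groups did not overlap (6.36 ± 0.32), and Eya4 (4.58 ± 0.27), Sox9, which appears in regenerating tubules (4.48 ± 0.29), and the cadherins Cdh2 (4.36 ± 0.13) and Cdh6 (1.91 ± 0.17) rose too. The nephron inducers divided: Wnt4 rose (2.40 ± 0.23), while Fgf9 (-3.39 ± 0.25) and Bmp7 (-2.05 ± 0.45) fell. Six2, the defining marker of the embryonic nephron progenitor, measured 6.24, 5.80, 5.64 and 5.82 on the tissue arrays and 6.11, 6.09, 6.28 and 6.67 on the progenitor arrays with overlapping groups and did not pass (0.41 ± 0.25), although it passed with quantile normalization, at 0.64 (limma adjusted p 0.0353). Wt1 fell (-3.11 ± 0.33); it is also a marker of podocytes, of which 7 of 8 tested markers fell.

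Positional identity, read from 25 tested Hox genes, changed little in size: 11 rose, 4 fell and 10 did not pass, with a median of 0.28, and only 4 changed by 2-fold or more, all of them rises of the Hoxb cluster. The 11 rises became 6 with 75th percentile scaling and 7 without the second cortex tissue array, the first cortex progenitor array or the second medulla progenitor array. Hoxb9 measured 9.04, 9.44, 9.97 and 9.78 on the tissue arrays and 11.63, 11.60, 11.40 and 11.38 on the progenitor arrays and its culture values lay above the tissue values (1.95 ± 0.29). Hoxb3 (1.98 ± 0.15), Hoxb4 (1.66 ± 0.18) and Hoxb5 (1.07 ± 0.20) were the others. The largest fall was in Hoxa10 (-0.77 ± 0.12).

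Of 13 tested fetal growth genes 8 rose and 4 fell, with a median of 1.43. Hmga2, a chromatin protein of embryonic and tumour cells, measured 5.16, 4.19, 4.58 and 4.11 on the tissue arrays and 12.47, 12.38, 12.15 and 12.22 on the progenitor arrays. Tissue sat near the floor on every array and culture was bright (7.80 ± 0.19). The RNA-binding protein Igf2bp1 (4.95 ± 0.24) and the imprinted gene Peg3 (4.81 ± 0.12) rose, and Myc rose by 3.30 ± 0.14. The imprinted growth factor Igf2 measured 10.84, 11.82, 12.47 and 12.19 on the tissue arrays and 5.16, 5.58, 5.60 and 6.20 on the progenitor arrays. It went the opposite way (-6.20 ± 0.32), with Igf2bp3 (-0.79 ± 0.21) and Plagl1, which fell more in cortex-derived (-4.25) than in medulla-derived cells (-0.78).

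**Figure D3:**
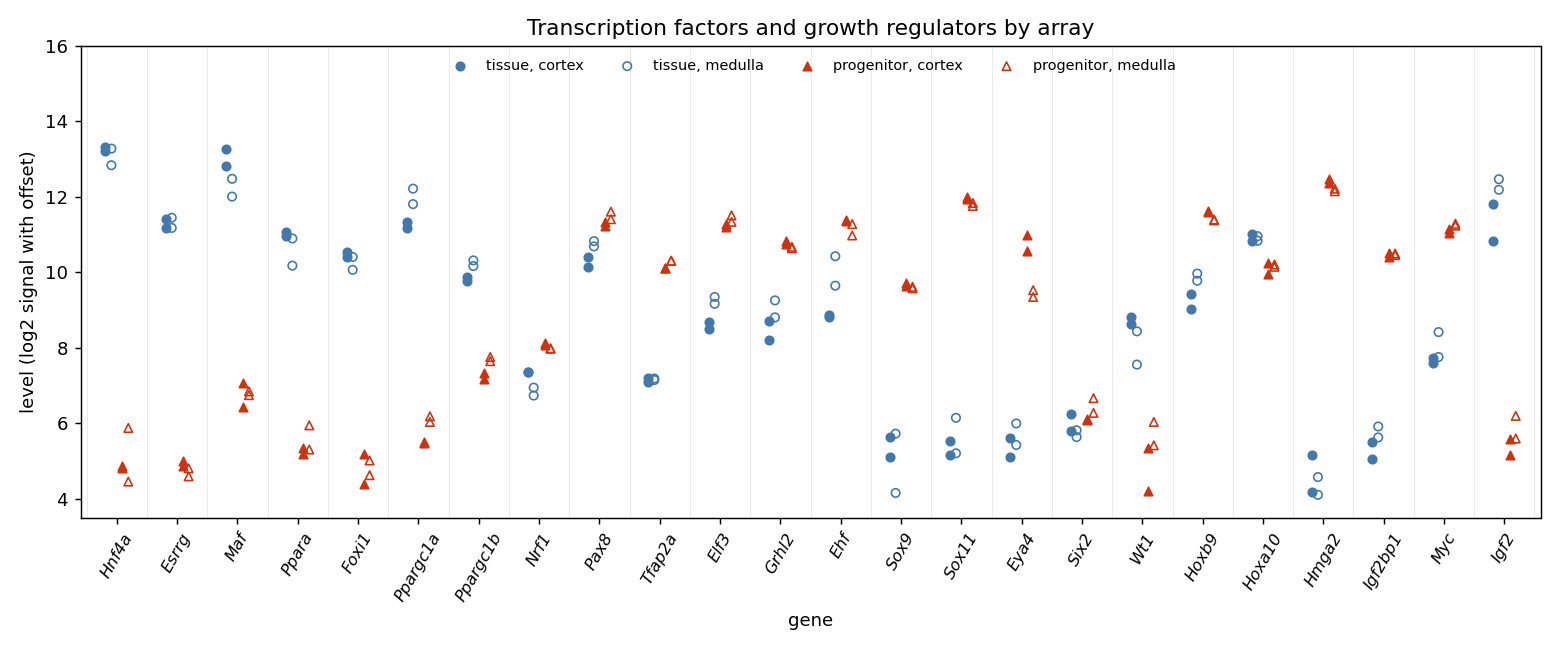
Log2 levels of 24 transcription factors and growth regulators on the 4 tissue arrays (circles) and the 4 progenitor arrays (triangles), with cortex filled and medulla open; the vertical axis is the log2 level and 1 column is 1 gene. Hnf4a and Esrrg lie high in tissue and near the floor in culture, Hmga2 and Sox11 the reverse, and Pax8 is bright in both.

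Progenitor cells carried the transcripts of dividing cells. Of 43 tested mitosis genes 42 rose and 0 fell (1 without the first medulla tissue array), with a median of 4.34, and of 40 DNA replication genes 37 rose and 0 fell, with a median of 1.97. Anillin, Anln, a scaffold of the cleavage furrow, measured 6.10, 5.81, 5.76 and 5.76 on the tissue arrays and 12.37, 12.55, 12.33 and 12.36 on the progenitor arrays. No tissue array approached the progenitor arrays (6.54 ± 0.19). The kinesin Kif20a (5.70 ± 0.20), the kinase Plk1 (4.85 ± 0.23), cyclin Ccnb2 (4.75 ± 0.13) and the checkpoint protein Cdc20 (4.74 ± 0.14) rose alike. In replication, the kinase subunit Dbf4 (4.14 ± 0.14), the loader Cdc6 (3.87 ± 0.20) and the helicase subunit Mcm3 (3.68 ± 0.27) led. Homologous recombination and Fanconi genes rose in 16 of 18 tested cases, headed by Brca1 (4.11 ± 0.31), with Fancc as the fall (-1.55 ± 0.25).

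Promoters of 3 mitosis genes are shown because such genes are known to be timed through CCAAT boxes, bound by NF-Y, and through the element TTTGAA, bound by repressor complexes outside mitosis. Both motifs were searched on both strands in 250 bases before the start and are in capitals in the 200 bases shown (RefSeq, GRCm38.p6), for Ccnb2 at chr9:70421555-70421754 and Cdc20 at chr4:118437344-118437543 on the minus strand and for Plk1 at chr7:122159235-122159434 on the plus strand.
Ccnb2: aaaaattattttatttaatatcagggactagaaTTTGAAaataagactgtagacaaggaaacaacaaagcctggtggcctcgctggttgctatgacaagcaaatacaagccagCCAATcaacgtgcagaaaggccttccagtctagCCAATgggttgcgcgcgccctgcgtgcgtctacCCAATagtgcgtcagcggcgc
Cdc20: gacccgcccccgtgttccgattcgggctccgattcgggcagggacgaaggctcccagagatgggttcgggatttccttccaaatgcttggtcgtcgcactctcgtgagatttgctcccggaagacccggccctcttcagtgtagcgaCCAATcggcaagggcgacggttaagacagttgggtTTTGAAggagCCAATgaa
Plk1: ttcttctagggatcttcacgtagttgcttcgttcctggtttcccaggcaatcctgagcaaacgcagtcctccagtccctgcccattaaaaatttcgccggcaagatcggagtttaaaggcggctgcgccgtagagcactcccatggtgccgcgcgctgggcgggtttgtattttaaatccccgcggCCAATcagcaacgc
Promoters of 26 of 36 mitosis genes in the table held CCAAT or its reverse complement ATTGG (72.2%), against 37.5% of all 27025 genes, and 10 held TTTGAA or TTCAAA (27.8%), against 18.3%. The shares describe these windows and are not a test of the factors.

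Regulators of the cell cycle changed in both directions. Of 23 tested cyclin, kinase and inhibitor genes 15 rose and 5 fell. Cdkn2a, which encodes the senescence and tumour suppressor proteins p16 and ARF from 1 locus, measured 5.11, 4.70, 4.02 and 5.38 on the tissue arrays and 11.87, 11.74, 12.19 and 12.21 on the progenitor arrays. Culture levels were high on all 4 arrays (7.20 ± 0.28), and its neighbour Cdkn2b (3.26 ± 0.17) and Cdkn1a, or p21 (4.70 ± 0.18), rose too. The embryonic inhibitor Cdkn1c measured 10.22, 10.29, 9.18 and 9.76 on the tissue arrays and 7.36, 7.49, 7.18 and 7.30 on the progenitor arrays and fell (-2.53 ± 0.35). The retinoblastoma family genes Rbl2 (-1.54 ± 0.18) and Rb1 (-0.92 ± 0.10, or -0.09 and not passing with the mean of all probe sets) fell too, and the inhibitor Cdkn2d did not pass (0.22 ± 0.26). Known targets of p53 rose in 17 of 20 tested cases and fell in 2, with a median of 1.96, among them Plk2 (4.87 ± 0.24), Eda2r (4.76 ± 0.19), Phlda3 (4.16 ± 0.15) and the p53 antagonist Mdm2 (3.36 ± 0.09). Sesn1 was the larger of the falls (-2.25 ± 0.24). Trp53 itself was not analysed here.

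Protein synthesis genes rose broadly but by modest amounts. Of 38 tested ribosome biogenesis genes 35 rose and 0 fell, with a median of 1.20, led by the snoRNP proteins Nop58 (2.71 ± 0.10) and Nop56 (2.55 ± 0.08). Cytosolic tRNA synthetases rose in 18 of 19 cases (median 1.32), with Cars (2.47 ± 0.15) the highest. Of 36 proteasome genes 24 rose and 2 fell, and the falls were Psmb9 (-1.51 ± 0.26) and Psme1 (-0.44 ± 0.14), which belong to the form induced by interferon; Psme1 lost its call without the first medulla tissue array or the second medulla progenitor array, at -0.35 and -0.41. Cytosolic chaperones rose in 16 of 26 cases, most of all the small heat shock protein Hspb1 (3.07 ± 0.20).

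Stress genes of the endoplasmic reticulum did not move as 1 group: 10 rose, 6 fell and 7 of 23 did not pass, with a median of 0.13. Chac1, which degrades glutathione, measured 7.19, 6.73, 7.23 and 7.12 on the tissue arrays and 11.22, 11.15, 10.69 and 10.78 on the progenitor arrays. All progenitor arrays were above all tissue arrays (3.89 ± 0.18), and asparagine synthetase, Asns (4.23 ± 0.14), the pseudokinase Trib3 (3.38 ± 0.36) and Atf4 (1.91 ± 0.10), the factor known to activate them, rose. Ddit3, another gene downstream of ATF4, did not pass (-0.16 ± 0.18), but rose with the mean of all probe sets, by 0.57 (limma adjusted p 0.00319). Herpud1 (-3.12 ± 0.11), Dnajb9 (-1.51 ± 0.13) and Xbp1 (-1.19 ± 0.12), of the unfolded protein branches, fell. The joint site of ATF4 and C/EBP proteins, TGATGCAA or TTGCATCA on the other strand, is in capitals in the 200 bases before the Chac1 start (chr2:119351042-119351241, plus strand), shown because Chac1 was 1 of the 2 genes of this list that held it.
Chac1: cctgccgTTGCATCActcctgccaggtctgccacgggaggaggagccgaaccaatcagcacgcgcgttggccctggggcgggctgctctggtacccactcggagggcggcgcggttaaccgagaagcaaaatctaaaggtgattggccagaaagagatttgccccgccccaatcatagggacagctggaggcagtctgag
Of all genes in the table, 0.9% held this motif within 250 bases of the start. Herpud1, which fell, was the other gene of this list, and Slc7a11 held it too.

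Genes of cell junctions changed by member. Of 22 tested tight junction genes 14 rose and 6 fell. Cldn6, a claudin of embryonic epithelia, measured 6.20, 6.63, 5.96 and 6.36 on the tissue arrays and 12.13, 12.16, 11.63 and 11.85 on the progenitor arrays. It was low in tissue on every array (5.66 ± 0.14), and Cldn4 (4.29 ± 0.16) and Cldn1 (3.34 ± 0.09) rose too. Cldn2, which forms the sodium and water pore of the proximal tubule, measured 13.11, 13.14, 12.65 and 13.05 on the tissue arrays and 6.20, 6.44, 8.20 and 7.83 on the progenitor arrays. Medulla-derived cells kept more of it than cortex-derived cells, but no culture array reached a tissue array (-5.82 ± 0.15), and it fell along with the segment claudins Cldn10 (-5.82 ± 0.19) and Cldn8 (-4.04 ± 0.17). Keratins and desmosomal genes rose in 16 of 21 tested cases, led by Krt20 (6.85 ± 0.17), Krt19 (6.67 ± 0.24) and Krt18 (4.98 ± 0.11), with Krt23 (-1.97 ± 0.31) and Krt15 (-1.51 ± 0.28) as the falls, which were 4 with 75th percentile scaling. The Krt15 difference depended on region, at 0.14 in cortex and -3.17 in medulla. Markers of the urothelium, which lines the renal pelvis, spread over the tissue arrays as well: the 10 tested averaged 5.40 to 7.98 in tissue and 7.14 to 7.45 in culture, and 4 rose and 3 fell. Psca, one of them, measured 5.04, 4.93, 9.10 and 8.29 on the tissue arrays and 8.23, 7.96, 8.12 and 8.22 on the progenitor arrays. It was high on the medulla tissue arrays and low on the cortex tissue arrays, and its difference was 3.11 in cortex and -0.52 in medulla. The differences of Upk3b (3.19 and 0.07) and Foxa1 (5.57 and 1.75) were also higher in cortex, and those of Upk1b were 0.31 and -3.0, where the region test did not pass. The part of urothelial RNA in the Krt15 result was not tested.

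Adhesion to matrix changed subunit by subunit, in cultures whose fibroblast markers averaged 9.21 to 9.65 against 7.84 to 8.45 in tissue. Integrins and laminins gave 12 rises and 9 falls among 26 tested. The chains of the epidermal laminin and its receptors rose, Lamb3 by 5.02 ± 0.22, Lama3 by 2.77 ± 0.11, Itgb4 by 4.17 ± 0.35 and Itga3 by 3.03 ± 0.12, while Itgb8 (-4.93 ± 0.13), Itga8, a mesangial integrin (-4.21 ± 0.29), and Lama2 (-3.09 ± 0.48) fell. Focal adhesion and stress fibre genes rose in 27 of 29 cases, with a median of 2.02. Anxa1 (5.06 ± 0.15), Anxa3 (4.76 ± 0.11), Pdlim7 (4.16 ± 0.15) and filamin Flnc (4.04 ± 0.37) led, and Myl9, a smooth muscle light chain, was the fall (-2.53 ± 0.31); 6 of 8 smooth muscle and pericyte markers fell with it. Genes of the plasminogen and metalloproteinase system, proteases and inhibitors together, rose in 18 of 23 tested cases, with matrilysin, Mmp7 (5.68 ± 0.47), the inhibitor Timp1 (6.16 ± 0.31) and Adam12 (4.49 ± 0.19) ahead, and Timp3 fell (-4.08 ± 0.10).

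Immediate early factors of the AP-1 family rose in 12 of 13 tested cases, with a median of 3.47. Fos, which is switched on within minutes of growth factor or stress, measured 7.20, 7.39, 9.02 and 8.02 on the tissue arrays and 13.99, 13.81, 13.67 and 13.87 on the progenitor arrays. Tissue levels spread more than culture levels but stayed below them (5.93 ± 0.18). Maff (5.20 ± 0.43), Fosl1 (4.36 ± 0.26) and Fosb (3.78 ± 0.15) rose, Jun rose by 0.92 ± 0.15, and Batf3 fell (-0.92 ± 0.22).

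Ligands changed in both directions, and some of them, such as Fgf7 and Grem1, are known from fibroblasts, whose markers rose in 15 of 20 cases. In the EGF family 9 of 16 tested genes rose and 2 fell. Ereg, or epiregulin, measured 5.06, 4.55, 5.06 and 4.10 on the tissue arrays and 9.93, 9.97, 10.06 and 9.97 on the progenitor arrays. It was near the floor in tissue and bright in culture (5.29 ± 0.25); Hbegf (3.67 ± 0.13), Tgfa (2.0 ± 0.17) and the receptor Egfr (1.05 ± 0.15) rose, and Egf, made by the thick ascending limb, fell (-8.91 ± 0.19). In FGF, PDGF, VEGF and HGF signalling 11 rose and 11 fell of 24, from Fgf7, a mesenchymal ligand (4.04 ± 0.24), to Fgf1 (-4.67 ± 0.16).

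Of 36 tested Wnt pathway genes 16 fell and 10 rose, where 35.9% of all tested genes fell and 36.8% rose. With the filter at the 75th percentile, which tests fewer genes, 8 genes of the list fell. The ligand Wnt7a measured 4.26, 4.42, 4.47 and 4.49 on the tissue arrays and 10.67, 10.59, 10.75 and 10.87 on the progenitor arrays. It was near the floor in tissue on all 4 arrays (6.31 ± 0.24), and Wnt10a (4.08 ± 0.28), Wnt7b (3.99 ± 0.19) and Wnt9a (3.16 ± 0.30) rose. Other ligands did not: Wnt5b fell (-2.83 ± 0.25) and Wnt6 did not pass (-0.52 ± 0.29). The secreted inhibitors Sfrp1 (-4.61 ± 0.18), Dkk2 (-4.47 ± 0.45) and Notum (-3.02 ± 0.25) fell, as did the frizzled receptor Fzd4 (-2.52 ± 0.16).

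TGF-beta and BMP genes gave 13 rises and 13 falls among 35 tested. Inhba, the activin A subunit, measured 4.81, 6.92, 6.33 and 6.48 on the tissue arrays and 11.22, 11.01, 11.45 and 11.40 on the progenitor arrays. Culture lay above tissue on every array (5.13 ± 0.36), and so did the activin antagonist Fst (4.18 ± 0.30) and the BMP antagonist Grem1 (4.18 ± 0.20), while Bmp6 (-5.21 ± 0.41) and Bmp4 (-3.89 ± 0.22) fell. All 4 tested Id genes, known BMP targets, fell: Id4 most (-7.28 ± 0.15), then Id2 (-2.92 ± 0.14), Id3 (-1.83 ± 0.15) and Id1 (-0.72 ± 0.12). In Notch signalling Jag1 (1.51 ± 0.12), Notch1 (1.25 ± 0.15) and Hes1 (1.57 ± 0.18) rose, and Notch4, an endothelial receptor, fell (-2.98 ± 0.29) along with the endothelial markers, in a list with 4 rises, 5 falls and 8 of 17 not passing.

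Cytokine transcripts rose while leukocyte markers fell. Of 23 tested interleukin and colony factor genes 15 rose and 5 fell (3 without the second medulla progenitor array). Il24 measured 5.04, 4.59, 4.12 and 4.98 on the tissue arrays and 10.36, 10.51, 11.12 and 11.07 on the progenitor arrays, so that no array of either group overlapped the other (6.08 ± 0.21); Il11 (5.52 ± 0.37), Lif (4.94 ± 0.26) and Csf3 (4.69 ± 0.27) rose too, and the receptor Lifr fell (-3.70 ± 0.14). Of 24 chemokines 11 rose, led by Cxcl5 (8.74 ± 0.10) and Ppbp (7.83 ± 0.16), and 7 fell, led by Cxcl12 (-5.18 ± 0.24). Innate defence genes rose in 15 of 24 cases, with Ptgs2, the inducible prostaglandin synthase (6.11 ± 0.14), and Nfkbiz (3.90 ± 0.10), and the falls were complement factors Cfb (-5.65 ± 0.28) and Cfi (-3.08 ± 0.18), defensin Defb1 (-5.64 ± 0.09) and the immunoglobulin carrier Pigr (-4.85 ± 0.14) among 6. The interferon list gave 14 rises and 5 falls of 26 (8 falls with 75th percentile scaling), with Bst2 (2.82 ± 0.20) and Gbp3 (-4.23 ± 0.21) at its ends.

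Genes of low oxygen did not move together. Epas1, or HIF-2 alpha, measured 12.25, 12.81, 12.62 and 12.48 on the tissue arrays and 6.24, 6.28, 6.54 and 6.50 on the progenitor arrays. It was high in tissue and low in culture (-6.15 ± 0.20), whereas Hif1a rose (1.10 ± 0.09). Of 21 tested genes 10 rose and 9 fell, and the list median of 0.01 changed sign with another scaling or normalization, to -0.10 with 75th percentile scaling and -0.05 with quantile normalization. The lipid droplet protein Plin2 (2.76 ± 0.12) and Ankrd37 (2.52 ± 0.34) rose, and Ndrg1 (-3.10 ± 0.11) and Car12 (-2.59 ± 0.14) fell.

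**Figure D4:**
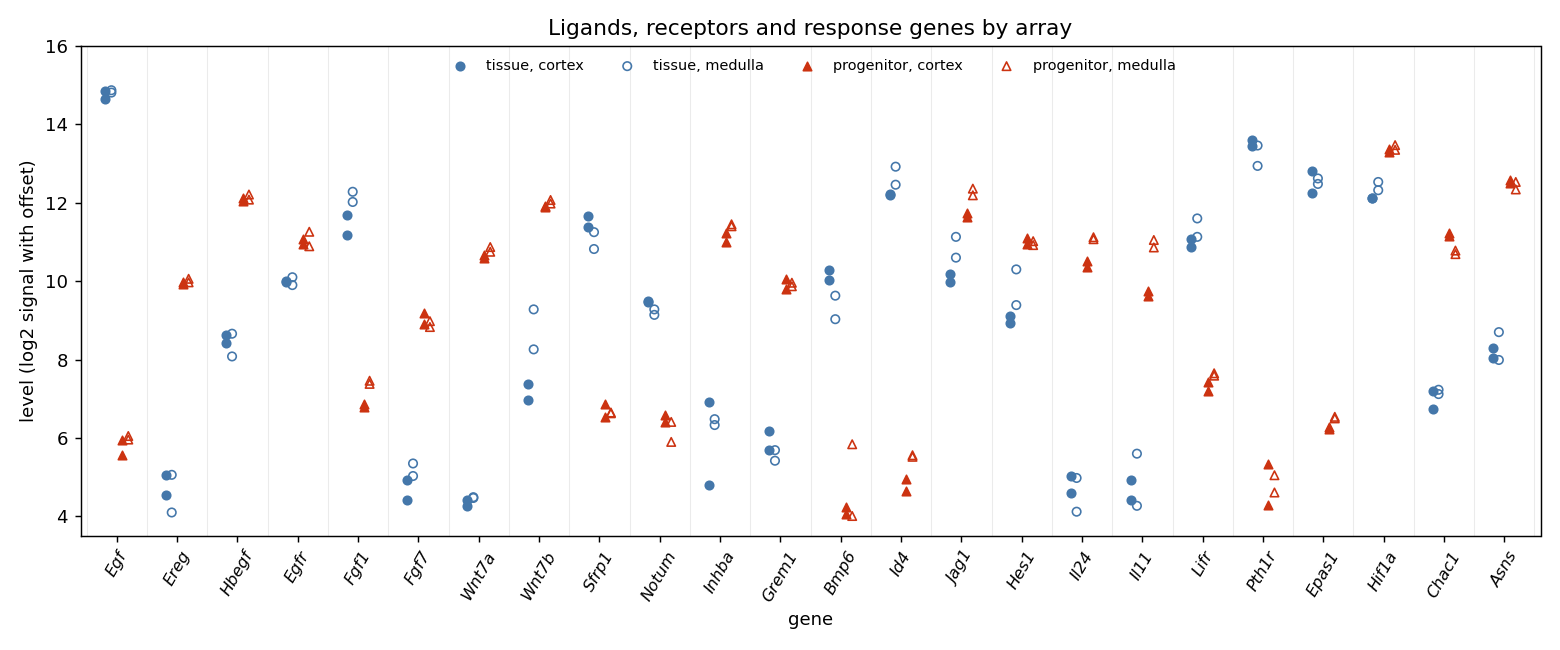
Log2 levels of 24 ligands, receptors and response genes on the 4 tissue arrays (circles) and the 4 progenitor arrays (triangles), with cortex filled and medulla open; the vertical axis is the log2 level and 1 column is 1 gene. Ereg, Wnt7a, Il24 and Chac1 lie below all progenitor arrays in tissue, and Egf, Id4, Epas1 and Pth1r above.

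Beyond these lists the largest differences included genes of other functions. Basp1, a membrane-bound signalling protein, measured 7.58, 7.93, 8.06 and 8.04 on the tissue arrays and 14.45, 14.12, 14.19 and 14.39 on the progenitor arrays and rose (6.39 ± 0.13). Others among the 30 largest rises were the ERK phosphatase Dusp5 (6.19 ± 0.16), the mucin glycosyltransferase Gcnt3 (6.05 ± 0.31), the spindle and midbody genes Psrc1 (5.94 ± 0.19) and Cep55 (5.88 ± 0.19), the autophagy gene Atg9b (5.85 ± 0.24), Bcl2l15 (5.75 ± 0.30) and the hyaluronan receptor Cd44 (5.70 ± 0.10). Cd44 measured 7.07, 6.94, 7.44 and 7.20 on the tissue arrays and 12.91, 12.97, 12.90 and 12.67 on the progenitor arrays, with a narrow spread within each group. The 30 largest falls included the retinol dehydrogenase Rdh16f2 (-9.67 ± 0.26), the trypsin inhibitor Spink1 (-9.38 ± 0.17), the carboxylesterase Ces1d (-9.35 ± 0.19), the aldo-keto reductase Akr1c21 (-9.34 ± 0.28), the glutathione transferase Gsta2 (-9.14 ± 0.25), the monooxygenase Fmo1 (-8.91 ± 0.23) and the nuclease Dnase1 (-8.90 ± 0.22). Keg1 had the widest SE among them (-8.97 ± 0.66) and measured 14.61, 14.88, 14.51 and 14.75 on the tissue arrays and 5.78, 5.50, 5.49 and 6.10 on the progenitor arrays. Those values lie close together within each group, and the SE also draws on the organoid arrays.

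Where a gene has several bright probe sets, they did not always move together. Among 6366 such genes, 53 had probe sets called in opposite directions, each by at least 2-fold. For Acer2, a ceramidase, one probe set had a difference of -2.78 and another of 1.83. Rab11fip3, Dst, Ahnak, Cyfip2, Slc38a10, Ptdss2 and Tti2 were the next by the size of the gap, with probe sets ending in _s_at or _x_at passed over. For Dst, which encodes giant linkers of the cytoskeleton in several isoforms, the differences were 2.18 and -1.93. Over all called genes, 5304 of 8359 other bright probe sets were called in the same direction as the chosen one and 576 in the opposite direction, so a gene's value stands for the part of the transcript that its probe set covers.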

How the data were processed

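MAS5 made the signals, per the submitters' processing notes (version not stated there), and the authors deposited them as log2 values, 1 per probe set and array. These values showed that each array had been scaled to a trimmed mean of 500.0 units, with 2% trimmed at each end. Of 45101 probe sets, 64 controls, 932 with several gene symbols and 9224 with none were not used, which left 18193 genes. The deposited log2 values were unlogged, 15.1592 units were added (the 25th percentile of all values) and log2 was taken again, so differences of dim genes are understated. The probe set with the highest mean stood for a gene, and 13037 genes were brighter than the median of each array in both samples of 1 or more of the 6 groups.

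Differences were tested in R 4.3.3 with limma 3.58.1, in a fit of all 12 arrays with 6 group means, empirical Bayes variances with a trend, two-sided tests, Benjamini-Hochberg adjustment over the 13037 genes and a threshold of adjusted p = 0.05. The difference is the mean of the cortex and medulla differences. Alternatives were another normalization, scaling, offset, filter or probe set rule, the 8 arrays alone, no variance trend, the replicate number as a block, and leaving out each array. Precision is limited by the number of arrays.

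The members, 70 gene lists and tests were chosen with earlier results of these data known. Named genes were drawn from the 30 largest rises and 30 largest falls (at least 2-fold, no overlap of arrays, probe sets marked as shared or cross-hybridizing passed over). Not all of these are described, and the largest fall, Klk1 (-10.83 ± 0.30), is among those left out above. Of each list, up to 4 members in the more frequent direction, up to 3 in the other and up to 3 that did not pass were taken. The 5 largest region-dependent genes each way, the 8 genes with the widest gap between opposed probe sets, the X and Y linked genes, and list members whose values stand beside a result were added. Promoters came from RefSeq (GRCm38.p6), matched by symbol. Genes without a probe set of their own were not analysed here.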

Additional observations from a re-analysis of the deposited data

Results flagged for a closer look

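The change from tissue to progenitor cells differed between regions for 19 of the named genes, by limma's test of the medulla difference minus the cortex difference (mean ± SE, adjusted p between 2.69e-05 and 0.0325). The medulla difference was the higher for 10 of them. Gzmd, a granzyme, had the widest such gap, 3.66 ± 0.44, with -0.84 in cortex and 2.82 in medulla. Its levels were low, with means of 4.46 in tissue and 5.44 in culture against a floor of 3.92. For Plagl1, an imprinted zinc finger factor, the gap was 3.47 ± 0.21 (cortex -4.25, medulla -0.78). Slc27a2, an acyl-CoA synthetase of the proximal tubule, differed by 3.11 ± 0.32 (cortex -10.59, medulla -7.48). Sprr2f, a small proline-rich protein, gave 2.88 ± 0.31 (cortex 3.82, medulla 6.70). For Enpep, a brush border aminopeptidase, it was 2.84 ± 0.45 (cortex -8.42, medulla -5.58). The value of Spink8, a serine protease inhibitor, was 2.58 ± 0.26 (cortex -2.21, medulla 0.37). For Gpx3, a secreted glutathione peroxidase, the gap was 2.05 ± 0.27 (cortex -5.70, medulla -3.66). Cldn2, the proximal tubule claudin, differed by 1.97 ± 0.30 (cortex -6.81, medulla -4.83). Kcnj15, a potassium channel, differed by 2.03 ± 0.32 (cortex -7.46, medulla -5.42). Car12, a carbonic anhydrase, gave 1.70 ± 0.27 (cortex -3.44, medulla -1.74).

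The medulla difference was the lower for the other 9 genes. Corin, a serine protease, had the widest such gap, -5.20 ± 0.76, with -0.35 in cortex and -5.56 in medulla. For Slc14a2, the urea transporter of the medulla, the gap was -5.16 ± 0.70 (cortex -1.26, medulla -6.42). Sptssb, a subunit of serine palmitoyltransferase, differed by -4.82 ± 0.57 (cortex 0.39, medulla -4.43). Sprr1a, a small proline-rich protein, gave -4.29 ± 0.53 (cortex 4.07, medulla -0.22). For Foxa1, a forkhead factor, it was -3.82 ± 0.55 (cortex 5.57, medulla 1.75). The value of Krt15, a basal keratin, was -3.32 ± 0.56 (cortex 0.14, medulla -3.17). The urothelial markers Psca and Upk3b gave -3.63 ± 0.58 (cortex 3.11, medulla -0.52) and -3.11 ± 0.50 (cortex 3.19, medulla 0.07). For Fxyd3, a sodium pump regulator, the gap was -3.13 ± 0.30 (cortex 5.64, medulla 2.51). Tissue levels of Corin and Slc14a2 were high on the medulla arrays alone, and both were low in culture from either region. With each group at 2 arrays, no search for outlying samples was made.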

How the results depend on the processing

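Of 9477 called genes, other settings gave between 7034 (filter at the 75th percentile, with fewer genes tested) and 10344 (the 8 arrays alone), and leaving out single arrays gave 8814 to 9077. The share of called genes that rose, 50.7%, lay between 46.8% (75th percentile scaling) and 56% (mean of all probe sets). The 37 region-dependent genes became 71 with the 8 arrays alone and 23 without a variance trend. Without single arrays they numbered 11 to 122, the highest without the second medulla tissue array. The 53 genes with opposed probe sets became 81 with an offset of 1, 16 with an offset equal to the median signal and 21 with the filter at the 75th percentile, and 44 to 67 without single arrays. With the mean of all probe sets the sign turned for Dst (0.17) and Tti2 (-0.12), which are named for opposed probe sets, and for Ddit3 (0.57). The causes were not tested. No other named gene changed sign under any setting run. Of 140 list counts, 25 moved by over 1.5 times with the filter at the 75th percentile, 12 with the mean of all probe sets and 0 to 6 under each other setting. Some named genes lost their call for the difference over both regions. With an offset of 1 these were Gzmd (1.58), Slc14a2 (-0.7) and Sptssb (-1.35). With the mean of all probe sets they were Ahnak (0.28), Rab11fip3 (-0.14) and Rb1 (-0.09). With the replicate number as a block 9415 genes were called, and no named gene lost its call. The difference between replicates 1 and 2 correlated across genes between groups with r from -0.138 to 0.0569. With 1 such difference per group, these values cannot settle whether equal numbers share an animal or culture.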
